A study of Mus musculus with 18 samples.

Results

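The interferon-inducible GTPases described here were 9 genes, chosen by their symbols: the guanylate-binding proteins Gbp2, Gbp3, Gbp4, Gbp5, Gbp7 and Gbp9, and the immunity-related GTPases Irgm1, Irgm2 and Igtp. All 9 were found among the 18204 genes of the table. RNA was measured in J774.1, a mouse macrophage-like cell line, which was either wildtype or Ctbp1/2dKO. The dKO cells carry knockout alleles made with Cas9 in Ctbp1 and Ctbp2 (Ctbp1-/-, Ctbp2-/-), the C-terminal binding proteins, which are transcriptional corepressors with a dehydrogenase-like fold. Cells of each genotype were kept for 4 h with PBS/DMSO vehicle, with MTOB at 1.5 mM or with 4-Cl-HIPP at 250 µM, which made 6 groups of 3 samples. MTOB and 4-Cl-HIPP are inhibitors directed at the dehydrogenase site of CTBPs. The knockout cells were grown out of sorted single cells and the number of clones is not given in the sources used here, so genotype and clone cannot be told apart. The labels call the samples separate replicates without saying that they came from separate cultures, and a p-value then measures only the spread between these samples.

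Both families are GTPases that interferons switch on in macrophages and many other cells. Guanylate-binding proteins assemble on the vacuoles of intracellular pathogens and on bacterial surfaces, where they help to rupture them and to feed inflammasomes. Irgm1, Irgm2 and Igtp are the regulatory class of the immunity-related GTPases, which sit on the membranes of the cell itself and keep the effector class from acting there, and Irgm1 is known for its part in autophagy and mitochondrial quality control. Interferon receptors signal through Janus kinases, and the transcription factors that these activate bind the GAS and ISRE elements of such promoters.

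The DNA ahead of these genes is shown as a description. The rule that chose them by symbol did not read it. Genes named for their induction by interferons are likely to carry GAS or ISRE elements, so the matches are not independent of that choice. RefSeq promoters of the mouse build GRCm38.p6 were matched for 7 of the 9 genes, and those of Gbp4 and Gbp9 were not. This build differs from the GRCm39 of the expression table. Within the 200 bases before the annotated start, the ISRE core (GAAA, any 2 bases, then GAAA) was found on either strand in all 7 matched genes, against 2.27% of 32851 promoters searched in the same way. The GAS motif TTCNNNGAA, which reads the same on both strands in its fixed letters, was found in 4 of the 7 (Gbp5, Gbp7, Igtp and Irgm2), against 5.49% of all promoters. Gbp3 has a further annotated start, whose window held neither motif. The last 100 bases before the start of the 3 immunity-related GTPases are printed with the ISRE core in capitals, at chr11:48871421-48871520 on the minus strand for Irgm1, and on the plus strand at chr11:58199456-58199555 for Igtp and chr11:58214877-58214976 for Irgm2.
Irgm1: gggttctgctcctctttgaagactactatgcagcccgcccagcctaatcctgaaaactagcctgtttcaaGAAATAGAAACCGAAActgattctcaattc
Igtp: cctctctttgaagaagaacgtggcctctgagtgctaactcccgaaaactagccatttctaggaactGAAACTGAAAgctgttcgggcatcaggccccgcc
Irgm2: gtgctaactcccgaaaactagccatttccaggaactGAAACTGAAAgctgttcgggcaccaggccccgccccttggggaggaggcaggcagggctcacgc

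The Irgm1 stretch holds 2 overlapping cores. The Igtp and Irgm2 stretches were near copies of each other, with 68 identical bases over the 70 that align without gaps. The Irgm1 stretch shared 44 of 90 aligned bases with that of Igtp and 34 of 61 with that of Irgm2. These alignments were also without gaps, which can miss bases shared at another spacing. In the guanylate-binding proteins of chromosome 3 the core lies on the opposite strand and appears in capitals as its complement, with 10 bases on each side. All of them are on the plus strand, at chr3:142620594-142620623 for Gbp2, chr3:142559989-142560024 for Gbp3, chr3:142496759-142496788 for Gbp5 and chr3:142530273-142530302 for Gbp7.
Gbp2: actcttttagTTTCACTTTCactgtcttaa
Gbp3: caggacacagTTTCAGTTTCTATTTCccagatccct
Gbp5: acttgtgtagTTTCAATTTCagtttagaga
Gbp7: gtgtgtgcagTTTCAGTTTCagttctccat

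In GRCm39 (Gencode M39 annotation) the genes fell into neighbourhoods. The expression values were quantified with the older Gencode M28, in which the overlaps and shares given here may differ. Gbp5, Gbp7, Gbp3 and Gbp2 follow each other within 144.0 kb on chromosome 3 (plus strand, 142199739 to 142343779). Gbp4 and Gbp9 lie on the minus strand of chromosome 5, within 105224332 to 105287609. Igtp (58089840 to 58098417) and Irgm2 (58090444 to 58113615) overlap on the plus strand of chromosome 11, and Irgm1 lies apart from them on its minus strand (48752795 to 48763164). Igtp and Irgm2 share 162 exonic bases. Of the 31-base words of Irgm2 transcripts, 10.2% occur in those of Igtp. In the other direction it was 7.87%, so reads could be divided between them. With transcripts of all other genes counted, the share was 18.2% for Irgm2 and 10.0% for Igtp. For Irgm1 this share was 8.69%, and its exons overlap those of an antisense RNA, Gm74350, over 497 bases. Exons of Irgm2 overlap an unnamed antisense RNA over 289 bases, and those of Gbp5, Gbp7 and Gbp9 overlap antisense RNAs over 570, 307 and 268 bases. An unstranded library cannot separate these from the genes. Gbp4 and Gbp9 share 107 exonic bases, and among the guanylate-binding proteins the share of such words ran from 4.41% for Gbp3 to 18% for Gbp7.

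The table gives scaled TPM, a share of all transcripts that takes gene length into account, in which levels of different genes can be set side by side. Every sample summed to between 999766 and 999897, so the depth of the libraries is unknown. Correlations between replicates ran from 0.983 to 0.987. As a check of the labels, Ctbp1 stood at 170 to 238 TPM in the wildtype libraries and at 19.7 to 31.5 TPM in the dKO libraries, and Ctbp2 at 87.8 to 96.9 and 68.5 to 81.9 TPM. RNA that such alleles still make does not check the label, so for Ctbp2 this check says little. For protein, the authors report the loss of both CTBP1 and CTBP2 by western blot. All 10 macrophage markers were listed above 0 in every library, and Csf1r, the receptor for macrophage colony-stimulating factor, stood at 612 to 942 TPM. The lowest value among the 10 was 0.306 TPM, in a dKO MTOB library. Of 15 markers of T and NK, B, fibroblast, epithelial and endothelial cells, 6 were in the table, and the highest, Cd3d, a chain of the T cell receptor complex, reached 2.07 TPM.

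The immunity-related GTPases made up nearly all of the RNA of the 9 genes. Irgm1 held 73.5% of their summed TPM over all libraries, Igtp 14.5% and Irgm2 8.47%. These 3 genes were listed above 0 in all 18 libraries, with ranges of 13.8 to 60.1 TPM for Irgm1, 2.37 to 13.1 TPM for Igtp and 1.47 to 8.24 TPM for Irgm2. The guanylate-binding proteins stayed low throughout. Gbp7 reached 1.51 TPM, Gbp3 1.39 TPM, Gbp9 0.726 TPM, Gbp2 0.612 TPM, Gbp4 0.386 TPM and Gbp5 0.235 TPM. Gbp4 was listed at 0 in 14 libraries, Gbp5 in 12, Gbp2 in 7, and Gbp7 and Gbp9 in 1 each. The authors' mean normalized count, taken over all samples, was 300.2 for Irgm1, 57.5 for Irgm2, 57.0 for Igtp, 9.33 for Gbp7, 5.93 for Gbp3 and 5.10 for Gbp9, 1.3 for Gbp2, 0.483 for Gbp5 and 0.425 for Gbp4, so values of the last 3 rest on very few reads.

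**Figure D1:**
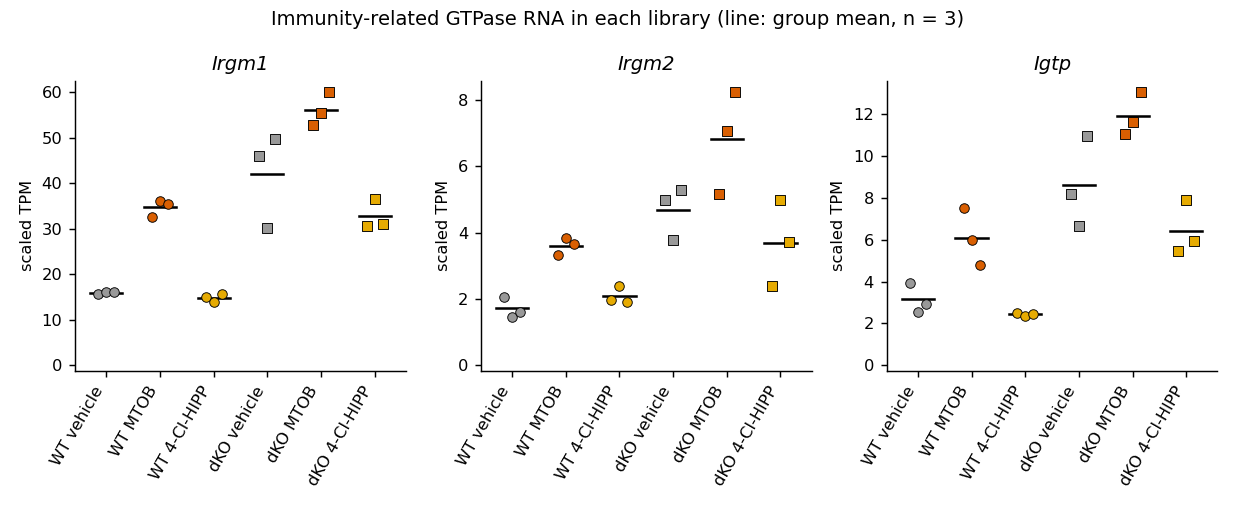
Scaled TPM of Irgm1, Irgm2 and Igtp in each of the 18 libraries, by group along the horizontal axis, with wildtype as circles, dKO as squares and a line at the mean of 3 libraries. Wildtype MTOB libraries lie above wildtype vehicle libraries in all 3 panels, and Irgm1 is highest in dKO MTOB, at 52.7 to 60.1 TPM.

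In wildtype cells MTOB raised the RNA of all 3 immunity-related GTPases, with ratios of means from 1.94 to 2.18. Irgm1 stood at 15.6, 16.1 and 16.01 TPM under vehicle and at 32.6, 36.0 and 35.4 TPM under MTOB. The groups were far apart, with means of 15.9 ± 0.258 and 34.7 ± 1.83 TPM (SD, n = 3), a ratio of 2.18. Irgm2 went from 2.06, 1.47 and 1.61 TPM to 3.32, 3.84 and 3.65 TPM, a ratio of means of 2.11, and Igtp from 3.95, 2.56 and 2.93 TPM to 7.54, 5.998 and 4.77 TPM, a ratio of 1.94. Neither gene's groups overlapped, although the Igtp values spread more within each group.

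On the log2(TPM + 1) scale of the limma fit the rise was 1.07 (SE 0.14, 95% interval 0.79 to 1.36, limma adjusted p = 0.000103) for Irgm1. It was 0.77 for both other genes, with limma adjusted p-values of 0.0221 for Irgm2 (SE 0.19) and 0.0172 for Igtp (SE 0.18). Thus 3 of the 9 genes passed in the upward direction, all 3 also past the 1.5-fold limit, where 3.8% of the 16383 genes tested were called higher and 1.56% were also past that limit. The median log2 fold change was 0.43 over the 9 genes and -0.01 over all genes. The former is the value of Gbp2, which was not called and rests on very few reads. In RNA of whole cultures, a change in every cell and a change in the share of cells with the RNA cannot be told apart. The Irgm1 call held in 15 of 15 alternatives, whereas Irgm2 was lost without wildtype vehicle replicate 2 or 3 or wildtype MTOB replicate 2 or 3 (adjusted p of 0.0871, 0.0723, 0.0775 and 0.0651), within a range of 0.0124 to 0.0871 over its alternatives. Igtp was lost without vehicle replicate 2 or 3 or MTOB replicate 1 or 2 (0.0800, 0.0619, 0.0865 and 0.0510) and in a fit of the compared groups alone (0.120), within a range of 0.0104 to 0.120.

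Macrophage markers moved in the same comparison. Of 10, Cd14, Lyz2, Adgre1 and Cd68 were called higher and Fcgr3 lower, and their summed level ran from 2746 to 2830 TPM under vehicle and from 3283 to 3449 TPM under MTOB. Adgre1, which encodes the F4/80 antigen of mature macrophages, changed most among them, by a log2 fold change of 1.79. The part of this in the rise of the GTPases was not tested.

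The guanylate-binding proteins gave no call with MTOB in wildtype cells. Gbp3 stood at 0.0907, 0.165 and 0.199 TPM under vehicle and at 0.581, 1.39 and 0.360 TPM under MTOB, so the groups did not overlap, but its log2 fold change of 0.58 (SE 0.22) had an adjusted p of 0.151. Gbp2, which is recruited to parasite vacuoles, was listed at 0 in all 3 vehicle libraries and at 0.287, 0.610 and 0.182 TPM under MTOB (adjusted p = 0.157 in limma). Gbp7, Gbp9, Gbp4 and Gbp5 overlapped between the groups, with adjusted p-values of 0.641, 0.624, 1 and 0.909. Including the 3 called genes, 5 of the 9 had every MTOB library above every vehicle library, against 10.6% of all genes tested.

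**Figure D2:**
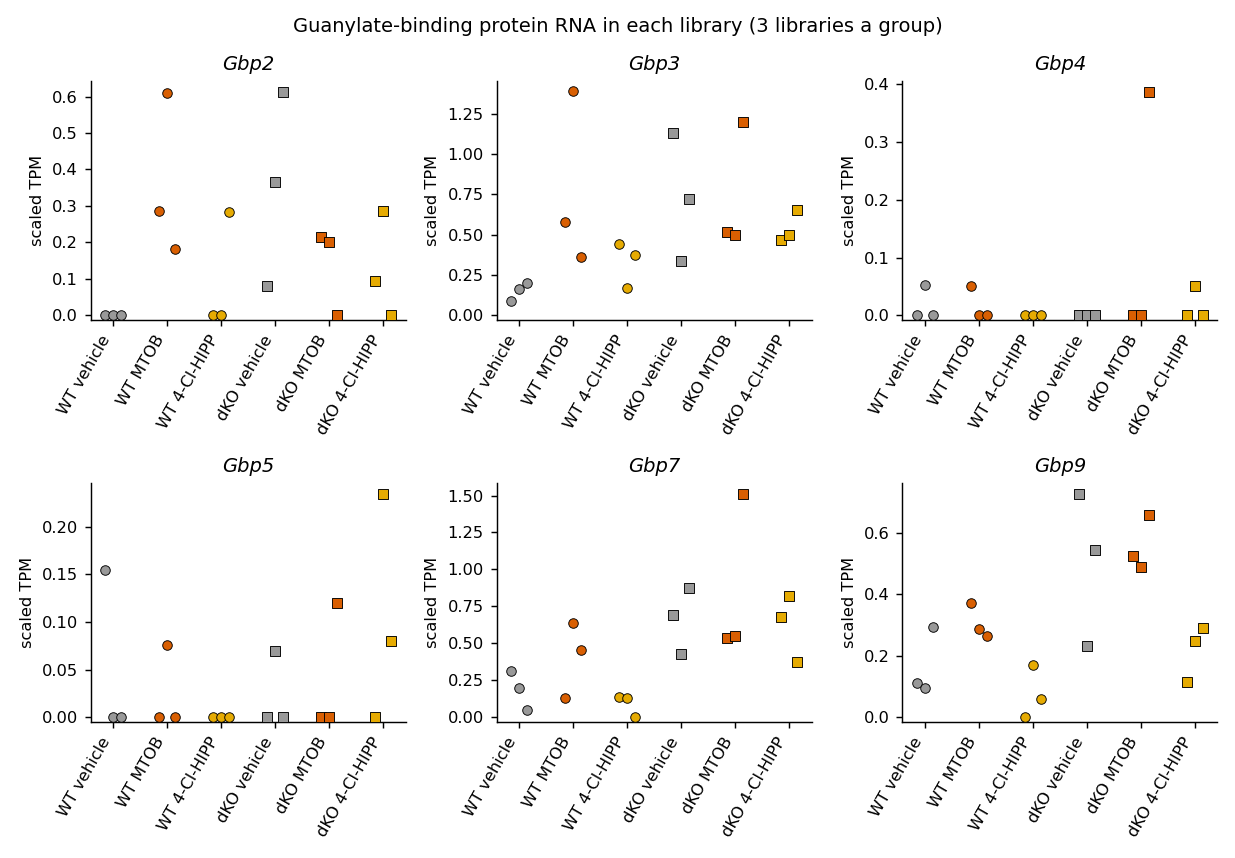
Scaled TPM of the 6 guanylate-binding proteins in each of the 18 libraries (3 per group, wildtype as circles, dKO as squares), each panel on its own vertical scale. No panel reaches beyond 1.51 TPM, and Gbp4 and Gbp5 are listed at 0 in 14 and 12 libraries.

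4-Cl-HIPP changed none of the 9 genes detectably in wildtype cells. Irgm1 stood at 15.0, 13.8 and 15.7 TPM, Irgm2 at 1.97, 2.38 and 1.901 TPM, and Igtp at 2.50, 2.37 and 2.43 TPM. The Irgm1 and Irgm2 values overlapped those of vehicle, and the Igtp values lay just under the lowest vehicle library. The log2 fold changes were -0.10 for Irgm1 (95% interval -0.39 to 0.19), 0.19 for Irgm2 (-0.22 to 0.60) and -0.26 for Igtp (-0.65 to 0.13), with limma adjusted p-values of 0.941, 0.907 and 0.822. Among the guanylate-binding proteins the estimates were 0.20 for Gbp3, 0.12 for Gbp2, -0.02 for Gbp4, -0.07 for Gbp5 and -0.12 for Gbp7 and Gbp9, each with overlap between the groups. None of the 9 genes passed in limma or had an unadjusted p under 0.05, where 0.324% of all genes were called higher and 0.0427% lower, and 8.19% were at an unadjusted p under 0.05. The concentrations of the inhibitors differ (1.5 mM and 250 µM), so their effects stand here side by side and were not compared.

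In dKO cells the 3 immunity-related GTPases already started from a higher level, and none passed with MTOB. Irgm1 stood at 46.0, 30.1 and 49.8 TPM under vehicle and at 52.7, 55.5 and 60.1 TPM under MTOB, with all MTOB libraries above all vehicle libraries. Irgm2 was at 4.97, 3.77 and 5.30 TPM and at 5.18, 7.07 and 8.24 TPM, with overlap. Igtp was at 8.20, 6.65 and 11.0 TPM and at 11.1, 11.6 and 13.1 TPM, the lowest MTOB library barely above the highest vehicle library. The ratios of means were 1.34, 1.46 and 1.38.

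The log2 fold changes of MTOB in dKO cells were 0.44 for Irgm1 (SE 0.14, 95% interval 0.15 to 0.73), 0.45 for Irgm2 (0.04 to 0.86) and 0.45 for Igtp (0.06 to 0.84), and none passed (limma adjusted p of 0.0682, 0.205 and 0.188). Thus 0 of the 9 genes were called in limma where 3.04% of all genes were called higher, and 3 had an unadjusted p under 0.05, as did 19% of all genes. For Irgm1 this rests on single vehicle libraries. Without dKO vehicle replicate 2, the lowest of its group, the log2 fold change fell to 0.22 (adjusted p = 0.196), and without replicate 3 it was 0.58 (adjusted p = 0.0231), within a range of 0.0231 to 0.364 over its alternatives. The guanylate-binding proteins had estimates of -0.23 for Gbp2, 0.01 for Gbp3, 0.02 for Gbp5, 0.06 for Gbp9, 0.13 for Gbp7 and 0.16 for Gbp4, and none passed. Cd14, Lyz2 and Spi1 were called higher among the 10 macrophage markers, whose sum ran from 2478 to 2525 TPM under vehicle and from 2568 to 2881 TPM under MTOB, and the part of this was not tested.

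Whether the MTOB effect differed between the genotypes was tested as an interaction. The effect on Irgm1 was larger in wildtype cells by 0.63 on the log2 scale (SE 0.19, 95% interval 0.23 to 1.04), but its limma adjusted p over all genes was 0.437. For Irgm2 and Igtp the difference was 0.32 each (intervals of -0.26 to 0.89 and -0.23 to 0.88), with limma adjusted p-values of 0.880 and 0.864. None of the 9 genes was called in limma, where 0.0916% of all genes were called in either direction. An unadjusted p under 0.05 was reached by 2 of the 9 (Irgm1 and Gbp2) and by 6.89% of all genes. The differences were 0.67 for Gbp2, 0.57 for Gbp3, 0.10 for Gbp7 and Gbp9, -0.06 for Gbp5 and -0.16 for Gbp4. Without dKO vehicle replicate 2 the Irgm1 difference rose to 0.85 and passed (adjusted p = 0.0210), the lowest of a range up to 0.700 over its alternatives.

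**Figure D3:**
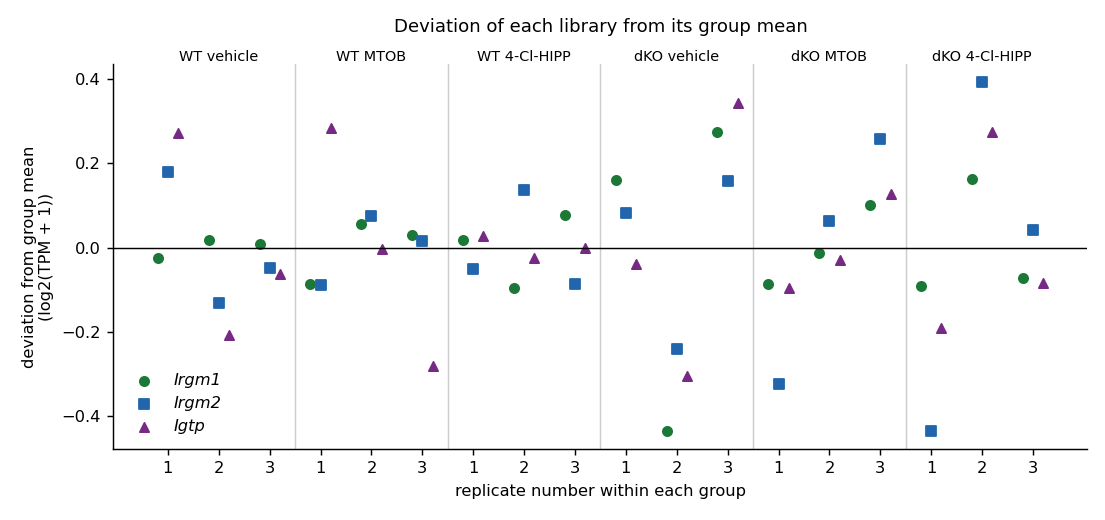
Deviation of each library from the mean of its group in log2(TPM + 1) (vertical axis), by replicate number within the 6 groups (horizontal axis), for Irgm1, Irgm2 and Igtp. In dKO vehicle replicate 2 all 3 genes lie below their group mean.

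Within dKO cells, 4-Cl-HIPP gave lower values that did not pass the test. Irgm1 stood at 30.5, 36.6 and 30.97 TPM, within the span of the vehicle libraries, with a log2 fold change of -0.32 (95% interval -0.61 to -0.03, limma adjusted p = 0.501). Irgm2 stood at 2.38, 4.99 and 3.70 TPM (-0.31, adjusted p = 0.735 in limma) and Igtp at 5.45, 7.90 and 5.94 TPM (-0.36, adjusted p = 0.640 in limma), and both overlapped vehicle. The estimates were -0.29 for Gbp9, -0.25 for Gbp2, -0.15 for Gbp3, -0.04 for Gbp7, 0.02 for Gbp4 and 0.11 for Gbp5. Of the 9 genes none was called in limma, where 0.0977% of all genes were called lower and 0.403% higher (66 higher and 16 lower, or 64 and 29 under median-of-ratios scaling). An unadjusted p under 0.05 was reached by 1 of the 9 (Irgm1) and by 8.47% of all genes. Without dKO vehicle replicate 2, Irgm1 passed as lower, at -0.54 (adjusted p = 0.0199, the lowest of a range up to 0.853 over its alternatives). That library correlated with the others of its group as well as any pair (0.987), so it did not stand apart over all genes. Cd14 was called lower here (-0.46), and the macrophage marker sum ran from 2363 to 2439 TPM. The 4-Cl-HIPP effect did not differ detectably between the genotypes for any of the 9 genes (0 called in limma, 0 with an unadjusted p under 0.05), with differences of 0.22 for Irgm1 (95% interval -0.18 to 0.63), 0.49 for Irgm2 (-0.08 to 1.07) and 0.10 for Igtp (-0.45 to 0.66). Those of Gbp2, Gbp3, Gbp9, Gbp4, Gbp7 and Gbp5 were 0.37, 0.35, 0.17, -0.05, -0.09 and -0.18. Of all genes 0% were called in it by limma, with 734 (4.48%) at an unadjusted p under 0.05.

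The 3 immunity-related GTPases were higher in dKO than in wildtype cells. Under vehicle, Irgm1 averaged 41.9 ± 10.4 TPM in dKO cells against 15.9 ± 0.258 TPM in wildtype (SD, n = 3), a ratio of 2.63. Irgm2 averaged 4.68 ± 0.803 against 1.71 ± 0.308 TPM, a ratio of 2.74, and Igtp 8.61 ± 2.19 against 3.15 ± 0.723 TPM, a ratio of 2.73. For each gene every dKO library lay above every wildtype library. The log2 fold changes were 1.31 for Irgm1 (95% interval 1.02 to 1.60, limma adjusted p = 6.11e-06), 1.06 for Irgm2 (0.65 to 1.47, adjusted p = 0.00138 in limma) and 1.20 for Igtp (0.81 to 1.59, adjusted p = 0.000317 in limma). These 3 of 9 genes were called higher, where 7.01% of all genes were, and 3.28% were also past 1.5-fold. All 3 calls held in 14 of 14 alternatives.

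Of the guanylate-binding proteins, Gbp7 stood at 0.314, 0.196 and 0.0505 TPM in wildtype vehicle and at 0.691, 0.429 and 0.872 TPM in dKO vehicle libraries. Gbp3 stood at 1.13, 0.336 and 0.724 TPM in dKO vehicle libraries and Gbp2 at 0.0815, 0.364 and 0.612 TPM, each without overlap with the wildtype values given above. Gbp9 was at 0.112, 0.0936 and 0.292 TPM in wildtype and at 0.726, 0.231 and 0.545 TPM in dKO, with overlap. Their log2 fold changes ran from 0.35 for Gbp9 to 0.56 for Gbp3, and none passed (adjusted p of 0.142 to 0.186 in limma). Each had an unadjusted p under 0.05, which made 7 of the 9 genes with the 3 called ones, where 21.4% of all genes were at that level. Gbp4 and Gbp5 were at -0.02 and -0.04, with overlap. The median over the 9 was 0.48, the value of the uncalled Gbp7, against 0.01 over all genes. In 6 of the 9 genes the groups did not overlap upwards, as in 15.1% of all genes. Among the 10 macrophage markers, Itgam and Cd68 were called higher in dKO cells and Cd14 and Adgre1 lower, by log2 values of -1.67 and -1.59. Under MTOB 2 of the markers were called higher and 3 lower in dKO cells, and under 4-Cl-HIPP 3 and 3. Their part in the differences was not tested.

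**Figure D4:**
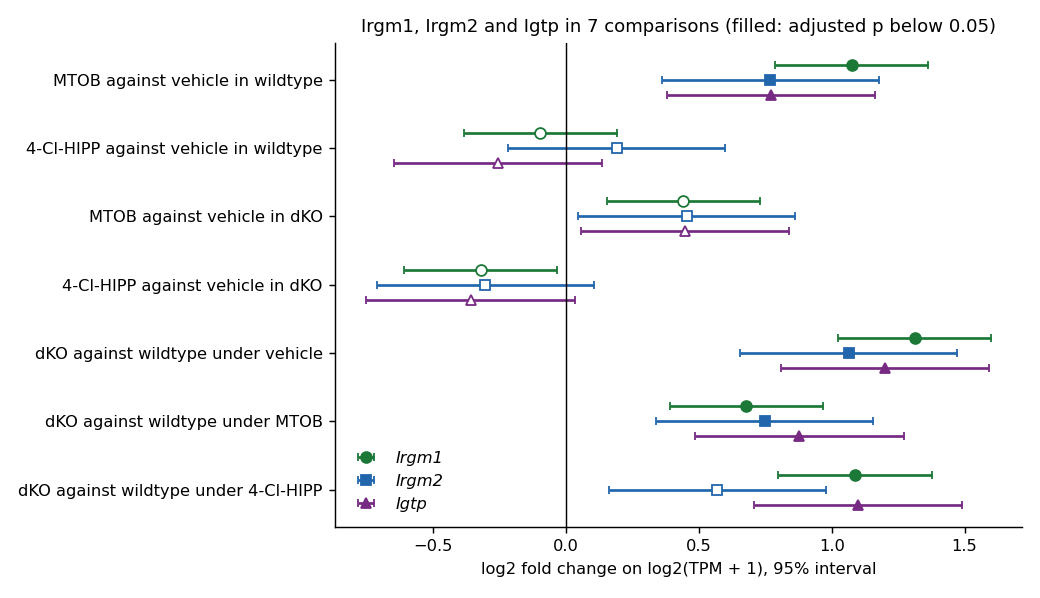
Log2 fold change on log2(TPM + 1) with its 95% interval (horizontal axis) of Irgm1, Irgm2 and Igtp in 7 comparisons (vertical axis), filled where the limma adjusted p is below 0.05. All 3 genes are filled for MTOB in wildtype cells and for dKO against wildtype under vehicle and MTOB, and none for 4-Cl-HIPP against vehicle in either genotype.

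With MTOB present, all 3 remained higher in dKO cells. The mean of Irgm1 was 56.1 ± 3.76 TPM in dKO and 34.7 ± 1.83 TPM in wildtype cells (SD, n = 3), a ratio of 1.62 and a log2 fold change of 0.68 (95% interval 0.39 to 0.97, limma adjusted p = 0.00316). Irgm2 differed by 0.75 (ratio 1.895, limma adjusted p = 0.0179) and Igtp by 0.88 (ratio 1.95, limma adjusted p = 0.00458). These 3 of 9 were called, where 6.98% of all genes were called higher. The Irgm2 call was lost without wildtype MTOB replicate 1 (0.0659), without dKO MTOB replicate 2 or 3 (0.0591 and 0.0854) or in a fit of the compared groups alone (0.0723), within a range of adjusted p from 0.00780 to 0.0854. Gbp2 and Gbp3 were not higher in dKO under MTOB (log2 -0.25 and -0.01, adjusted p of 0.438 and 1 in limma). Gbp7 stood at 0.128, 0.639 and 0.455 TPM in wildtype and at 0.534, 0.552 and 1.51 TPM in dKO cells, which overlapped. The dKO libraries of Gbp9 lay above the wildtype ones, but its log2 fold change of 0.25 did not pass (adjusted p = 0.350 in limma), nor did those of Gbp7, Gbp4 and Gbp5 (0.38, 0.13 and 0.02).

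Under 4-Cl-HIPP, Irgm1 and Igtp were again higher in dKO cells, by 1.09 (95% interval 0.80 to 1.38, limma adjusted p = 4.35e-05) and 1.10 (0.71 to 1.49, limma adjusted p = 0.000733). Irgm2 differed by 0.57 (0.16 to 0.98) and did not pass (limma adjusted p = 0.0791), since dKO replicate 1, at 2.38 TPM, lay at the level of the highest wildtype library. Without that replicate it passed, at 0.79 (adjusted p = 0.0123, within a range of 0.0123 to 0.306). Thus 2 of the 9 were called, where 6.6% of all genes were called higher. Gbp7 was at 0.135, 0.130 and 0 TPM in wildtype and at 0.680, 0.820 and 0.372 TPM in dKO cells, without overlap, and it missed the threshold (log2 0.57, limma adjusted p = 0.111). With a pseudocount of 0.1 it passed (log2 1.99, adjusted p = 0.0263, within a range of 0.0263 to 0.284). Gbp3, Gbp9, Gbp5, Gbp2 and Gbp4 had estimates of 0.22, 0.18, 0.14, 0.04 and 0.02, and none passed.

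Ordered by mean, Irgm1 was lowest in wildtype 4-Cl-HIPP (14.8 ± 0.948 TPM) and wildtype vehicle, which overlapped. Next came dKO 4-Cl-HIPP (32.7 ± 3.38 TPM) and wildtype MTOB, which also overlapped each other, then dKO vehicle, whose lowest library lay below both of them, and last dKO MTOB (SD, n = 3). MTOB in wildtype cells thus gave Irgm1 values from 32.6 to 36.0 TPM, inside the span of untreated dKO cells, 30.1 to 49.8 TPM. For Igtp the order was the same except that wildtype MTOB (6.10 ± 1.39 TPM) came before dKO 4-Cl-HIPP (6.43 ± 1.29 TPM), which overlapped. For Irgm2 the order began with wildtype vehicle and wildtype 4-Cl-HIPP (2.09 ± 0.260 TPM), and wildtype MTOB and dKO 4-Cl-HIPP averaged 3.60 ± 0.262 and 3.69 ± 1.31 TPM.

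Pooled over both genotypes, the 3 immunity-related GTPases varied together beyond the group means. As a description over 18 libraries that share their groups, their levels correlated with Pearson's r of 0.933 to 0.963 between pairs. After the group mean was taken from each library, r was 0.584 for Irgm1 and Irgm2, 0.548 for Irgm1 and Igtp and 0.623 for Irgm2 and Igtp. The last pair also shares exonic bases. Irgm1 deviated by -0.095 to 0.077 in wildtype and by -0.43 to 0.27 in dKO libraries, so its r rests mostly on the latter. The 3 genes deviated in the same direction in dKO libraries such as vehicle replicate 2. They did not in wildtype ones such as MTOB replicate 1 (-0.086 for Irgm1, -0.089 for Irgm2 and 0.284 for Igtp). No r was computed within a genotype. With the 9 genes each standardised and averaged, the genes whose levels were most like that average over the 18 libraries, once genes under a count of 10 were left out, were Parp14 (r = 0.932), Slfn5 (0.920), Xaf1 (0.917), Dtx3l (0.915) and Usp18 (0.911).

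Other genes of the pathway were read from fixed lists. Counts called in them stand beside the shares of all genes called. For MTOB these were 3.8% higher and 3.46% lower in wildtype cells, and 3.04% and 3.54% in dKO cells. For dKO against wildtype under vehicle they were 7.01% and 3.72%. For MTOB in wildtype, medians of the log2 fold change were 0.02 over the other interferon-inducible GTPases, 0.02 over receptors, kinases, STATs and IRFs, 0.07 over feedback regulators, -0.05 over partners of prenylation and vacuole targeting, 0.09 over inflammasome partners and 0.28 over other interferon-gamma targets, beside -0.01 over all genes. For dKO against wildtype under vehicle these medians were -0.01, 0.24, 0.11, 0.06, -0.01 and 0.46, beside 0.01 over all genes. The 14 other interferon-inducible GTPases tested of 17 listed included 1 that rose with MTOB in wildtype cells, Gvin2, a very large inducible GTPase. Gvin2 went from 3.71, 3.65 and 3.36 TPM to 7.94, 5.86 and 6.04 TPM (log2 0.73, limma adjusted p = 0.00609), and it was higher in dKO cells under vehicle by 1.31. Mx2, of the dynamin-like antiviral Mx proteins, was called higher in dKO cells under all 3 treatments, by 1.06, 1.49 and 1.50 under vehicle, MTOB and 4-Cl-HIPP. Ifi47, of the same list, went the other way under all 3 treatments and did not pass. Under vehicle it ran from 5.11 to 5.62 TPM in wildtype and from 3.04 to 5.18 TPM in dKO libraries, with overlap. With MTOB it ran from 4.78 to 7.799 TPM in wildtype and from 3.35 to 4.06 TPM in dKO libraries. With 4-Cl-HIPP these ranges were 4.04 to 6.304 TPM and 2.55 to 3.94 TPM. Mx1 had the largest MTOB estimate of the list in wildtype cells, 1.18, but its 3 MTOB libraries ran from 0.252 to 2.73 TPM and it did not pass (adjusted p = 0.113 in limma). None of the 14 passed with MTOB in dKO cells or with 4-Cl-HIPP in either genotype. The effector Iigp1, which coats parasite vacuoles, was listed at 0 in 2 of 3 wildtype libraries under vehicle and under MTOB. In wildtype 4-Cl-HIPP and in dKO vehicle all 3 libraries were at 0. It stood at 0.133, 0.310 and 0.267 TPM in dKO MTOB and at 0.229, 0.106 and 0.116 TPM in dKO 4-Cl-HIPP libraries. It was called in no comparison (adjusted p = 0.145 in limma for MTOB in dKO cells).

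Of the interferon ligands listed, Ifnb1 was in the table. It was listed at 0 in all 9 wildtype libraries and in all dKO 4-Cl-HIPP libraries, at 1.04, 0 and 0.781 TPM in dKO vehicle and at 0.911, 1.30 and 0 TPM in dKO MTOB libraries, and it passed in no comparison. Among 13 receptors, kinases, STATs and IRFs, MTOB in wildtype cells raised Irf8, Irf9 and Jak2 (log2 0.90, 0.56 and 0.29) and lowered the receptor chains Ifngr1 and Ifnar2 (-0.36 each). With MTOB in dKO cells Irf8, Irf9 and Irf1 rose (0.43, 0.32 and 0.56) and Ifngr1 fell (-0.28), and with 4-Cl-HIPP none passed in either genotype. Between genotypes under vehicle 7 were higher and 1 lower. Jak2, the kinase of the interferon-gamma receptor, stood at 8.29 to 10.0 TPM in wildtype and at 60.5 to 63.8 TPM in dKO vehicle libraries (log2 2.62). Irf9 and Stat2 were higher by 0.69 and 0.58, and Irf8, a macrophage lineage factor, was lower by -0.41.

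Usp18, an ISG15 protease that damps the type I receptor, had its group means in the same order as Irgm1. Its range was 6.32 to 7.47 TPM in wildtype vehicle, 19.3 to 26.9 TPM in wildtype MTOB, 28.6 to 38.7 TPM in dKO vehicle and 43.5 to 57.7 TPM in dKO MTOB libraries. The log2 fold change of MTOB was 1.58 in wildtype and 0.51 in dKO cells, and the difference between genotypes under vehicle was 2.15. Of the 7 feedback regulators, 2 rose and 1 fell with MTOB in wildtype cells (Usp18 and Ptpn6 up, Socs3 down), 1 rose and 1 fell in dKO cells (Usp18 up, Ptpn6 down), and Socs3 alone rose with 4-Cl-HIPP, by 0.53 in wildtype and 0.54 in dKO cells. Between genotypes under vehicle 3 were higher and 1, Ptpn1, lower. The MTOB effect on Ptpn6 differed between genotypes (0.32, limma adjusted p = 0.00980), and of all genes listed here it alone passed that test.

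Of 18 partners of prenylation and vacuole targeting, MTOB raised Sqstm1, the autophagy receptor p62, in both genotypes (log2 1.21 and 1.08). In wildtype cells Rnf213 also rose (0.36) and Atg7 fell (-0.49), and under vehicle Rnf213, Gabarapl2 and Sqstm1 were higher in dKO cells (0.83, 0.40 and 0.30). Of 7 inflammasome partners tested, Nlrp3 rose with MTOB in both genotypes (0.58 and 0.53), and under vehicle Il18 was higher (0.92) and Nlrp3 lower (-0.22) in dKO cells. In both lists none passed with 4-Cl-HIPP. Of 15 other interferon-gamma targets tested, MTOB raised 3 in wildtype cells (Acod1, which makes itaconate, by 1.59, Nos2 by 0.54 and Cd74 by 0.20) and 3 in dKO cells (Acod1 by 1.68, Cd274 by 0.62 and Cd74 by 0.22), and none passed with 4-Cl-HIPP.

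**Figure D5:**
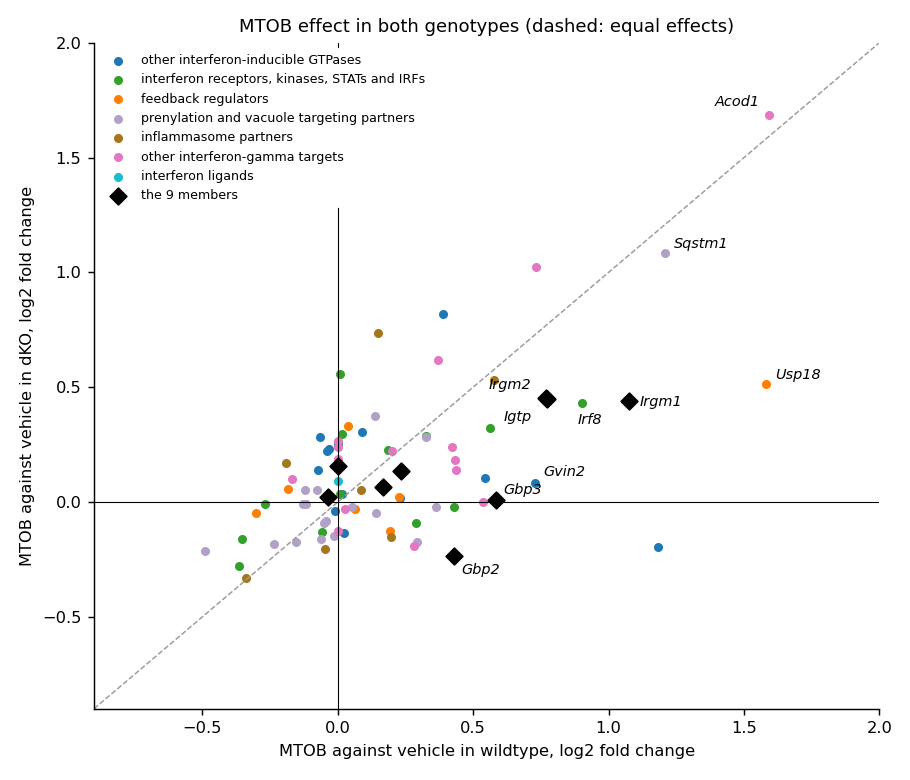
Log2 fold change of MTOB against vehicle in wildtype (horizontal axis) and in dKO cells (vertical axis) for the 9 interferon-inducible GTPases (black diamonds) and the genes of the other lists (coloured points), with a dashed line at equal effects. Irgm1, at 1.07 and 0.44, and Usp18, at 1.58 and 0.51, lie under the line, and Acod1, at 1.59 and 1.68, and Sqstm1, at 1.21 and 1.08, lie close to it.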

How the data were processed

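RNA sequencing covered 18 samples of J774.1 cells in 6 groups of 3, grouped by the genotype and treatment of their labels. The authors quantified unstranded libraries with Salmon 1.9.0 (GC bias correction, Gencode M28, GRCm39), summarised them per gene and tested them with DESeq2 1.44.0. The labels name polyA RNA, the methods rRNA depletion. The authors deposited scaled TPM per sample. A further deposited column is a signal, the mean normalized count over samples. The fold changes and adjusted p-values of the authors' own comparisons, in 8 columns, were not used. Counts and library depths were not analysed here.

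The 9 genes and the lists were chosen with earlier results of these data known. All 9 are given in every comparison. List genes were to be named by passing, at most 4 per list and comparison, a limit exceeded in 2 lists where more are given, and not every such gene is reported here. Mx1, Ifi47, Iigp1, Ifnb1 and Ciita did not pass and were named after their values were seen. The lowest 10% of genes by mean normalized count were left out (16383 of 18204 remained), and limma 3.58.1 (R 4.3.3) was fitted on log2(TPM + 1) with a mean for each of 6 groups over all samples. The variance trend followed log2 of the mean normalized count. Since TPM is not a count, limma took the place of a count test. Tests were two-sided with Benjamini-Hochberg adjustment over all genes, and an adjusted p below 0.05 was called, with the number past 1.5-fold (log2 0.585) beside it. Fold changes on this scale understate those of low genes. The fit was tested on simulated data. Alternatives were pseudocounts of 0.1 and 0.5, a minimum mean normalized count of 10, no filter, median-of-ratios scaling, no variance trend, the compared groups alone, replicate blocks and leaving out each replicate. Positions came from Gencode M39. Promoters came from RefSeq, and motif matches are descriptions. Figures used matplotlib 3.10.9.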

Additional observations from a re-analysis of the deposited data

Results flagged for a closer look

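Both results given here concern guanylate-binding proteins near the lower limit of the table, in which all treated libraries of wildtype cells lay on the other side of their vehicle mean from those of dKO cells. For Gbp2 with MTOB, the 3 wildtype libraries (0.287, 0.610 and 0.182 TPM) lay above a vehicle group listed at 0, and the 3 dKO libraries (0.214, 0.202 and 0 TPM) lay below the mean of their vehicle group. The difference of the effects was 0.666 on the log2(TPM + 1) scale and did not pass in limma (adjusted p = 0.587). For Gbp3 with 4-Cl-HIPP, the wildtype libraries (0.446, 0.169 and 0.372 TPM) lay above the vehicle mean and the dKO libraries (0.465, 0.498 and 0.653 TPM) below theirs, with a difference of 0.347 that did not pass (limma adjusted p = 1). With 9 genes and 2 inhibitors looked at, neither opposite movement was supported by the test of the difference. Groups of 3 are too small for a test of single outlying libraries, and none was run.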

How the results depend on the processing

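The number of the 9 genes called for MTOB in dKO cells was 0, and 1 (Irgm1) with a minimum mean normalized count of 10 (adjusted p = 0.0411, with only 3 of the 9 genes tested) or with median-of-ratios scaling (adjusted p = 0.0492). Leaving out single replicates gave 1 to 3 calls for MTOB in wildtype cells, 0 to 1 for MTOB and for 4-Cl-HIPP in dKO cells, 2 to 3 for dKO against wildtype under MTOB and under 4-Cl-HIPP, 3 throughout under vehicle, 0 to 1 for the difference of the MTOB effect, and 0 for 4-Cl-HIPP in wildtype cells and its difference. No result reversed, and 39 of 1078 values that were not called changed sign. Samples with the same replicate number did not deviate together (0 of 18 pairs within a genotype with a correlation over 0.1, from -0.136 to 0.0607). No pairing by number was detected, but this check cannot show that the replicates were handled separately. A replicate block gave the same counts in every comparison, 3, 0, 0 and 0 for the inhibitors, 3, 3 and 2 between genotypes and 0 for both differences. Over all genes, a fit of the compared groups alone called 699 in place of 1189 genes for MTOB in wildtype cells, 305 in place of 1078 in dKO cells, 24 in place of 60 and 9 in place of 82 for 4-Cl-HIPP, 995 in place of 1829 between genotypes under MTOB, and 2 in place of 0 for the difference of the 4-Cl-HIPP effect. The 15 genes of the difference of the MTOB effect became 6 without the variance trend and 8 with a replicate block (6 within genotype), the 60 for 4-Cl-HIPP in wildtype cells became 35 with a block within genotype, and single left-out replicates gave as few as 19 of those 60, 36 of the 82 and 7 of the 15, and up to 3 for the difference of the 4-Cl-HIPP effect. Depth is unknown, which limits what can be said of the guanylate-binding proteins, whose values at or near 0 TPM depend on the pseudocount.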

Other observations

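Class II antigen presentation genes are textbook targets of interferon-gamma through CIITA, and 3 of them were listed above 0 only in dKO libraries. H2-Aa was listed at 0 in all 9 wildtype libraries and at 19.3 to 21.3 TPM in dKO vehicle, 20.2 to 31.3 TPM in dKO MTOB and 14.3 to 20.5 TPM in dKO 4-Cl-HIPP libraries. H2-Eb1 and H2-Ab1 were also listed at 0 in wildtype, and at 16.4 to 21.8 and 2.74 to 5.23 TPM in dKO vehicle libraries. Ciita itself was listed at 0 in wildtype and at 0.334 to 0.401 TPM in dKO vehicle libraries, and it did not pass (adjusted p = 0.234 in limma). Of the 15 interferon-gamma targets tested, 7 were called higher and none lower in dKO cells under vehicle. Of all genes, 7.01% were called higher and 3.72% lower. Beside the 3 class II chains, Tap1 stood at a log2 fold change of 0.69, Fcgr1 at 0.62, Psmb8 at 0.44 and Cd74 at 0.37.

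After group means were removed, the genes most like the average of the 9 standardised GTPases over the 18 libraries were Krit1 (r = 0.912), Ift81 (0.874), Gm46349 (0.869), Cnp (0.855) and Icam4 (0.853), none of which is among the 5 genes most like it in level. Both sets are the highest r of all genes with a count of at least 10, so high values can come from that choice alone. The average also weighs all 9 genes equally, with Gbp4 and Gbp5 at 0 in 14 and 12 libraries. No test was run on these correlations.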
